A study of Mus musculus with 7 samples.

Results

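10 genes for neural RNA-binding splicing regulators were followed through the development of the mouse dorsal forebrain: Ptbp1, Ptbp2, Elavl2, Elavl3, Elavl4, Rbfox1, Rbfox2, Rbfox3, Nova1 and Nova2. They were taken by symbol from the deposited gene list, and all 10 of the 10 were among its 21862 genes. The study dissected dorsal forebrain from CD-1 mouse embryos at 6 stages from embryonic day (E) 10.5 to E18.5, the others being E12.5, E14.5, E15.5 and E16.5, dissociated it with papain and captured single cells with Drop-seq. In this method the mRNA of each cell receives a cell barcode, and each molecule a unique molecular identifier (UMI), so that a gene's UMIs count its captured molecules. There were 7 samples, 1 per stage and 2 at E14.5, and no treatment or mutation separated them. The labels do not say how many embryos each sample pooled.

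The proteins encoded by these genes bind pre-mRNA and decide which exons are kept. Ptbp1 holds back neural exons in dividing and non-neural cells, and its relative Ptbp2 takes its place in neurons, where it holds back a smaller part of them. Ptbp1 is also known to make the Ptbp2 transcript skip an exon, which leads to decay of that transcript. The Elavl proteins (Hu proteins) bind U-rich stretches and act on splicing, stability and translation. Rbfox proteins bind UGCAUG, and Rbfox3 is the antigen known as NeuN, a widely used marker of neurons. Nova proteins bind clusters of short CA-containing motifs and set the exon choice of many synaptic transcripts. All counts below come from the 3′ ends of transcripts, so that they give the amount of mRNA of each gene and not which of its exons were kept.

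The deposited matrix held 10261 cells and 27776936 UMIs, with 387 to 3235 cells and a median of 1645 to 3352 UMIs per cell in the 7 samples. Each cell carried 1 of 19 cluster labels, which are numbers without names. From marker genes, labels 1, 3, 6, 10 and 12 were apical progenitor-like (the dividing cells that line the ventricle), labels 4 and 7 intermediate progenitor-like (their neuron-producing daughters, with Eomes), label 0 newborn migrating neuron-like, labels 2, 5, 9 and 11 projection neuron-like and label 8 interneuron-like. These 5 classes are called apical progenitors, intermediate progenitors, label 0 cells, projection neurons and interneurons below. The UMIs of each class were added up within each sample that had 20 or more of its cells, which gave 7 samples for both progenitor classes and for interneurons, and 6, without E10.5, for label 0 cells and projection neurons. Levels are a gene's UMIs scaled to the total of such a sum, in the usual unit CPM. Differences are on the log2 scale, fitted with edgeR's quasi-likelihood test with the sample as a block, and an adjusted p (Benjamini-Hochberg over all genes tested) under 0.05 is a call. The labels were themselves made from these counts, so the class comparisons are not independent of them. When the cells were clustered anew without the 10 genes, 89.9% of the cells that had a class in both kept it. Only 4 of the 10 were among the 2000 variable genes, so 1996 of these stayed in. The new clusters thus rest on nearly the same genes and cannot make the class comparisons independent of the counts. The new clusters gave a class to 8668 cells, against 9566 by the labels, and clusters of 355 and 564 cells were among those left unnamed. The new clusters named newborn migrating neuron-like held 663 and 308 cells, against 1812 in label 0, so that class was smaller there.

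The members fell into unlike patterns over the labels. Ptbp1 was high in both progenitor classes and low in every neuronal label. Ptbp2 did not split the progenitor from the neuronal labels, with medians over samples from 174 CPM in the Cajal-Retzius-like label 13 to 359 CPM in label 7. Elavl2 and Elavl4 had their highest level in label 4, the intermediate progenitors led by Neurog2 and Eomes. Elavl3, Rbfox1, Rbfox2 and Nova2 had theirs in neuronal labels. With all samples added together, Rbfox3 was highest in label 0, and Nova1 in the interneurons of label 8, close to its level in label 12. By the median over samples, Rbfox3 was highest in label 4 (315 CPM, against 310 in label 0). Nova1 was then highest in label 13 (35.9 CPM, against 33.4 in label 8).

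**Figure D1:**
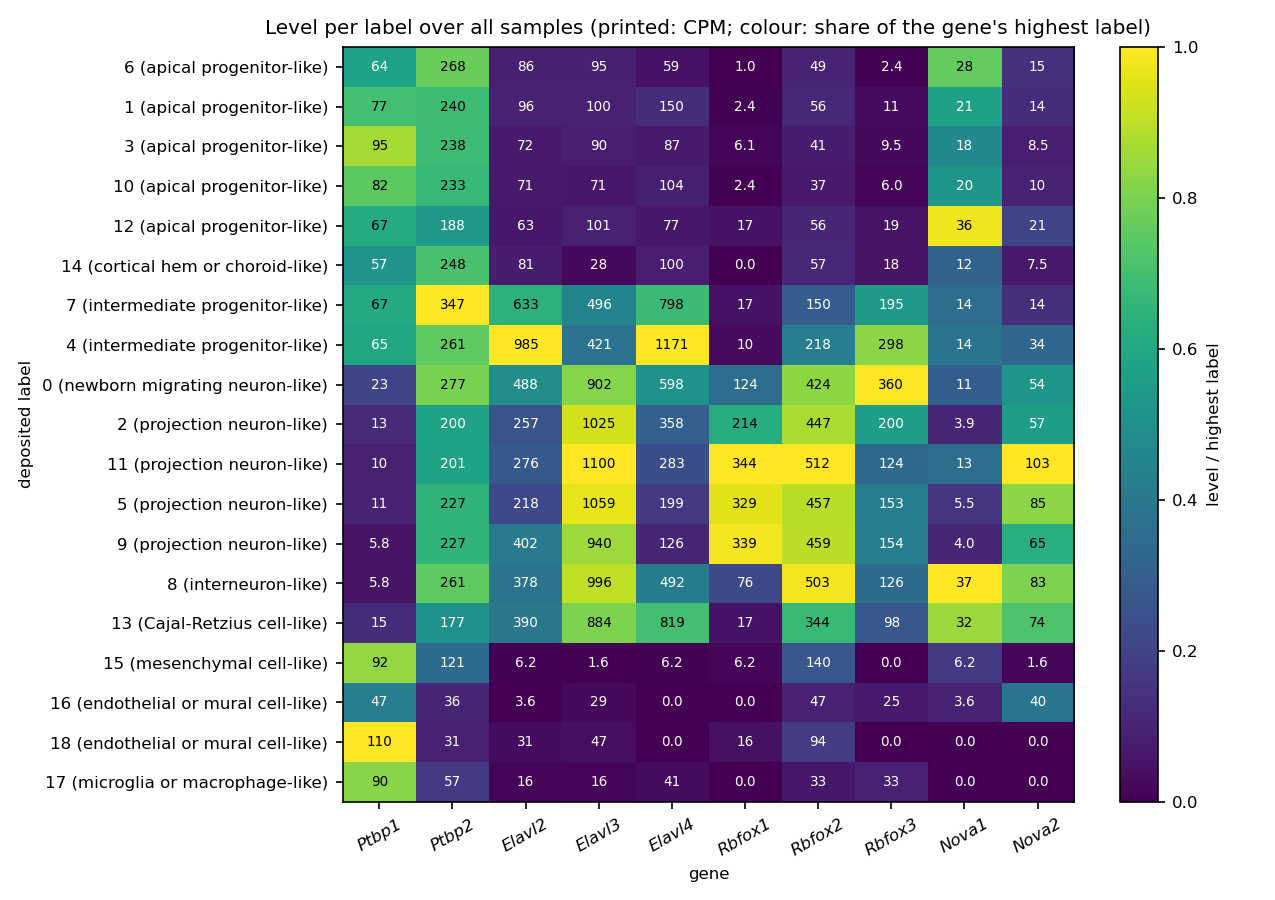
Level of each member (x axis) in each of the 19 deposited labels (y axis), over all samples together. The printed values are CPM and the colour is the level divided by that gene's highest label. Elavl2 and Elavl4 peak in label 4, whereas Elavl3 is high in labels 0, 2, 5, 9, 11, 8 and 13.

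The ends of the neurogenic path were compared first. Between projection neurons and apical progenitors, 7 members were higher, 2 were lower and 1 was not called, so that 9 of 10 were called, where 63.0% of the 8345 genes tested were called in either direction. The members' share is read against a background in which most genes differed. The median log2 difference was 2.13 over the members and -0.0013 over all genes tested. In 9 of the members no sample of one class overlapped the range of the other class, and Ptbp2 was the exception. All 9 calls were also made after clustering the cells without the members. That took out only 4 of 2000 clustering genes, so it is a weak check of the labels.

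Ptbp1 (chr10:79854427-79864771, plus strand, ENSMUSG00000006498, GRCm38) was the member that marked progenitors. Its level was 42.9 to 125 CPM (median 72.2) in apical progenitors and 6.02 to 19 CPM (median 10.6) in projection neurons, and the ranges did not overlap. Projection neurons were 6.98-fold lower (log2 difference -2.80, SE 0.22, adjusted p = 8.54e-14), lower in 6 of 6 samples. The drop did not come at the first step of the path. Intermediate progenitors held 35.4 to 124 CPM (median 68.4), and their difference from apical progenitors was not called (log2 difference -0.28, SE 0.19, adjusted p = 0.290, 95% interval -0.68 to 0.11). Label 0 cells held 11.5 to 51 CPM (median 21.4) and were 2.90-fold lower than intermediate progenitors (log2 difference -1.54, SE 0.25, adjusted p = 5.79e-06), lower in 6 of 6 samples. From label 0 cells to projection neurons the level was lower again (log2 difference -0.98, SE 0.27, adjusted p = 0.00753), lower in 5 of 6 samples, but this call was lost without the second E14.5 sample (log2 difference -0.85, adjusted p = 0.0601), with only cells of at most 5% mitochondrial UMIs (-0.69, adjusted p = 0.204) and with only libraries whose name ends in 1 (-0.73, adjusted p = 0.302). The second E14.5 sample had the highest Ptbp1 level of all samples in apical progenitors, in label 0 cells and in projection neurons. The 5% limit, here and below, took out most cells of E10.5 and of all samples older than E14.5. A call that it changed may thus reflect stage as well as cell quality, and the 2 were not separated.

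Interneurons had 5 UMIs of Ptbp1 in all. Their level was listed at 0 in 4 of 7 samples, where 3 counts would be 22.1 to 36.9 CPM, so that a difference from projection neurons was not detectable at this depth (log2 difference -0.95, SE 0.59, adjusted p = 0.349). Ptbp1 was not limited to neural cells: the mesenchymal-like label 15 held 91.5 CPM (59 UMIs; 69.7 to 118), with the interval covering counting error only.

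Ptbp2 (chr3:119718742-119784466, minus strand, ENSMUSG00000028134) did not follow Ptbp1 in the opposite direction at the level of mRNA. Apical progenitors held 143 to 275 CPM (median 215) and projection neurons 188 to 246 CPM (median 214), with overlapping ranges. The log2 difference was 0.11 (SE 0.15, adjusted p = 0.531), and its 95% interval ran from -0.19 to 0.42, which leaves room for changes of up to about that size either way. None of the 5 class comparisons called it. The labels within intermediate progenitors differed: Ptbp2 was 312.5 to 402.9 CPM (median 359) in label 7 and 96.8 to 305 CPM (median 248) in label 4. Every label 7 sample thus lay above all samples of apical progenitors and of projection neurons. Intermediate against apical progenitors was not called (log2 difference 0.32, SE 0.15, adjusted p = 0.117), higher in 6 of 7 samples, but it was called when the E18.5 sample was left out (log2 difference 0.38, adjusted p = 0.0322). Projection neurons against label 0 cells, likewise not called (log2 difference -0.21, SE 0.16, adjusted p = 0.371), was called lower when only cells with at most 5% mitochondrial UMIs were used (log2 difference -0.55, adjusted p = 0.0181). Outside the neural lineage Ptbp2 was 121 CPM in the mesenchymal-like label 15, 36.1 CPM in the endothelial-like label 16 and 57.3 CPM in the microglia-like label 17.

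The balance of the pair moved with Ptbp1. Of the UMIs of both genes, Ptbp1 gave 19.1% to 44.3% in the apical progenitors of the 7 samples, 15.1% to 41.9% in intermediate progenitors, 3.60% to 14.2% in label 0 cells and 2.39% to 8.33% in projection neurons. In the apical progenitors of E10.5 the share was 19.3% (181 of 940 UMIs; 16.8% to 21.9%), and in the projection neurons of E18.5 it was 2.39% (12 of 503 UMIs; 1.24% to 4.13%), with exact 95% binomial intervals that cover counting error only. The share of 1 sample in apical progenitors was always above that of every sample in label 0 cells and projection neurons. Capture can differ between the 2 genes, so the share compares cells with each other and does not give the molar ratio of the transcripts.

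**Figure D2:**
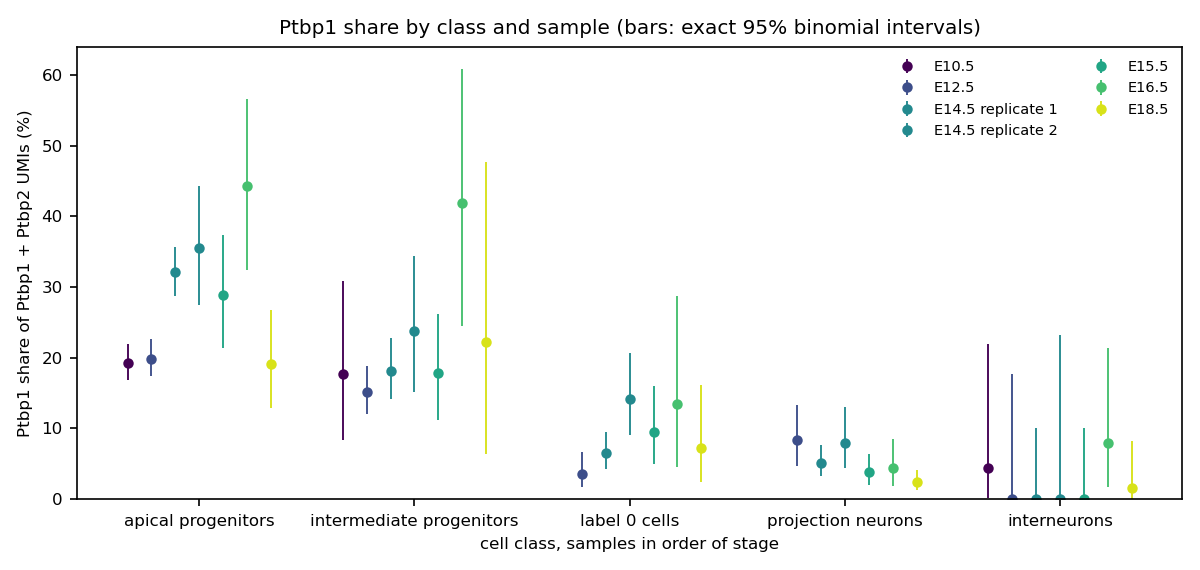
Ptbp1 share of the summed Ptbp1 and Ptbp2 UMIs (y axis, percent) by cell class (x axis), 1 point per sample in order of stage, with exact 95% binomial intervals. Projection neurons lie between 2.39% and 8.33%, below all apical progenitor samples, which lie between 19.1% and 44.3%.

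The Elavl members switched on earlier than the neuronal classes. Elavl2 (chr4:91250763-91400785, minus strand, ENSMUSG00000008489) was 51.4 to 97.1 CPM (median 61) in apical progenitors and 492 to 1041 CPM (median 704) in intermediate progenitors, a 9.99-fold higher level (log2 difference 3.32, SE 0.16, adjusted p = 1.84e-18) with no overlap between the samples. It was then lower in label 0 cells, at 388 to 563 CPM (median 430) (log2 difference -0.77, SE 0.15, adjusted p = 6.61e-05), lower in 6 of 6 samples, and lower again in projection neurons, at 153 to 325 CPM (median 280.4) (log2 difference -0.73, SE 0.15, adjusted p = 2.75e-04), lower in 6 of 6 samples. The level in projection neurons was nevertheless 3.52-fold above that of apical progenitors (log2 difference 1.82, SE 0.16, adjusted p = 1.71e-12).

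Elavl4 (chr4:110203722-110351909, minus strand, ENSMUSG00000028546) had the same shape of profile. It was 49.5 to 145 CPM (median 95.6) in apical progenitors and 407 to 1109 CPM (median 889) in intermediate progenitors, 9.25-fold higher (log2 difference 3.21, SE 0.19, adjusted p = 6.20e-16), and no sample of the first class reached the second. Label 0 cells held 357 to 823 CPM (median 452), lower than intermediate progenitors (log2 difference -0.78, SE 0.18, adjusted p = 7.60e-04), lower in 6 of 6 samples. This step was no longer called after clustering without the members (log2 difference -0.45, adjusted p = 0.0737) or with only libraries whose name ends in 1 (-0.54, adjusted p = 0.156). Projection neurons held 151 to 468 CPM (median 214) and were lower than label 0 cells (log2 difference -1.0, SE 0.18, adjusted p = 5.60e-05), lower in 6 of 6 samples. Within intermediate progenitors, Elavl4 in label 4 was 1427 (E12.5), 1226 and 926 (both E14.5 samples), 1087 (E15.5), 857 (E16.5) and 629 (E18.5) CPM, and in label 7, led also by Sgol2 and Mybl1, it was 984 (E10.5), 889.9 (E12.5), 743 (E14.5) and 582 (E15.5) CPM.

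Elavl3 (chr9:22015005-22052023, minus strand, ENSMUSG00000003410) rose over more than 1 step and stayed high. Its level was 62.4 to 147 CPM (median 85.7) in apical progenitors, 264 to 643 CPM (median 453) in intermediate progenitors, 698 to 1138 CPM (median 856) in label 0 cells and 896 to 1143 CPM (median 1064) in projection neurons. The first step was 4.66-fold (log2 difference 2.22, SE 0.16, adjusted p = 2.61e-13) and the second 2.07-fold (log2 difference 1.05, SE 0.16, adjusted p = 1.35e-06), and in both every sample was higher, with no overlap of the ranges. The third was not called (log2 difference 0.32, SE 0.15, adjusted p = 0.120), higher in 5 of 6 samples, although it was called after clustering without the members (log2 difference 0.49, adjusted p = 0.00868). Interneurons held 789 to 1180 CPM (median 1036), and their difference from projection neurons had a 95% interval of -0.45 to 0.15 on the log2 scale.

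Seen as shares of the 3 Elavl genes' UMIs, the mixture turned towards Elavl3. Elavl3 gave 14% to 30.4% of them in intermediate progenitors, 41.2% to 54.7% in label 0 cells and 62.3% to 70.9% in projection neurons, and these 3 ranges did not overlap. In apical progenitors the share was 26.1% to 48.4%, which overlapped that of both intermediate progenitors and label 0 cells. The level of Elavl3 in apical progenitors could be set against cells that should lack it in 2 samples. At E10.5 apical progenitors held 85.7 CPM (244 UMIs; 75.2 to 97.1) and the mesenchymal-like label 15, found in that sample alone, 1.55 CPM (1 UMIs; 0.0393 to 8.64). After each cell was thinned to 1000 UMIs, 8.39% (49 of 584 cells; 6.27% to 10.9%) of the apical progenitors of E10.5 and 0 of 121 (which allows up to 3.0%) of the label 15 cells had an Elavl3 UMI, with median depths of 3368 and 3838 UMIs before thinning. At E18.5 apical progenitors held 147 CPM (89 UMIs; 118 to 181) and the 20 cells of the endothelial-like label 16 held 50.6 CPM (6 UMIs; 18.6 to 110). The thinned shares there were 9.94% (16 of 161 cells; 5.79% to 15.6%) and 5.88% (1 of 17 cells; 0.149% to 28.7%), at median depths of 2402 and 3022 UMIs. The 2 intervals overlapped in the thinned shares at E18.5 and did not at E10.5, and in the other samples no such label had the 20 cells needed for a level.

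Markers of newborn migrating neurons were also higher in intermediate than in apical progenitors. Their summed level was 41.4 to 325 CPM in apical progenitors and 1761 to 4551 CPM in intermediate progenitors, and their part in the Elavl levels of intermediate progenitors was not tested. With the 89 cells called as doublets left out, Elavl2, Elavl3 and Elavl4 were called higher in intermediate progenitors as before. The called doublets were 0.867% of all cells, against an expected 5%, so any doublets missed by the calling stayed in the sums. The part of mixed cells in these levels was not tested.

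The promoter windows of the Elavl genes are shown because their level was higher in intermediate progenitors, whose label 4 is led by Neurog2 and Neurog1, and that of Ptbp1 as a member that goes down on the same path. Neurog2 encodes a proneural basic helix-loop-helix factor. Such factors bind E-boxes, and 2 of these were searched on both strands. One is CAGATG, which reads as CATCTG on the other strand. The other, CAGCTG, is its own reverse complement. Matches of the 2 motifs cannot overlap each other. Each window holds the 250 bases before a RefSeq transcript start (GRCm38.p6, the sequence of mm10), written 5′ to 3′ on the strand of the gene, with matches in capitals. The Elavl4 window is chr4:110287528-110287777 on the minus strand, that of Elavl2, the farthest upstream of its 6 windows, is chr4:91399985-91400234 on the minus strand, that of Elavl3 is chr9:22052024-22052273 on the minus strand and that of Ptbp1 is chr10:79854182-79854431 on the plus strand.
Elavl4: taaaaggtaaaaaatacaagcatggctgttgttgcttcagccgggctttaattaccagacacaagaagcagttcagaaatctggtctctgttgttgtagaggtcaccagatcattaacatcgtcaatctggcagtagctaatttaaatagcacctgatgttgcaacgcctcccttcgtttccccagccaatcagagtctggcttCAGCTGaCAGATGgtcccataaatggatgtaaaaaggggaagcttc
Elavl2: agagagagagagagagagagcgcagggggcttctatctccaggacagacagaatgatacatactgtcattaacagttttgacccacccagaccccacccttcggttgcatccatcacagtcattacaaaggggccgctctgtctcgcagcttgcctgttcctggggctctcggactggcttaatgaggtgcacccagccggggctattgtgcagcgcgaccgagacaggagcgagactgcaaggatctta
Elavl3: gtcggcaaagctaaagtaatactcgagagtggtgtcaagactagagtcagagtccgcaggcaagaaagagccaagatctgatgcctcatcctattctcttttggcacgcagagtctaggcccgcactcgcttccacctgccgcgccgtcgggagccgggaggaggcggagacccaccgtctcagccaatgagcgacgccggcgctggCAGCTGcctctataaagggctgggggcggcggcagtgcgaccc
Ptbp1: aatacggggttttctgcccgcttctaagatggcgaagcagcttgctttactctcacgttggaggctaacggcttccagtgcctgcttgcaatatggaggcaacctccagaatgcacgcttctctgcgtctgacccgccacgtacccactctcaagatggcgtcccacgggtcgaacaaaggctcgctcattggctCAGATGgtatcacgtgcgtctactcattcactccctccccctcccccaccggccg

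In the Elavl4 window CAGCTG began 46 bases before the start and CAGATG 39 bases before it, with 1 base between them. Both motifs together were in 1.95% of the 32851 mouse windows of this length, CAGATG in 14.4% and CAGCTG in 13%. These shares are per window, whereas the Elavl4 window was chosen from 4 because it holds both motifs, so they do not say how rare such a gene is. Of the 4 windows 3 held CAGATG and 2 held CAGCTG, but the 2 with both overlap and hold the same matches, and the farthest upstream, chr4:110351912-110352161, held neither. The Elavl3 window held CAGCTG 43 bases before the start, and the Ptbp1 window held CAGATG 55 bases before it. None of the 6 Elavl2 windows held either motif, nor did the windows of Ptbp2, Rbfox3 and Nova2, while the Nova1 window and 1 of the 2 Rbfox1 windows held CAGCTG. A match here is a run of letters and not evidence of binding, and Rbfox2 had no window in the table.

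**Figure D3:**
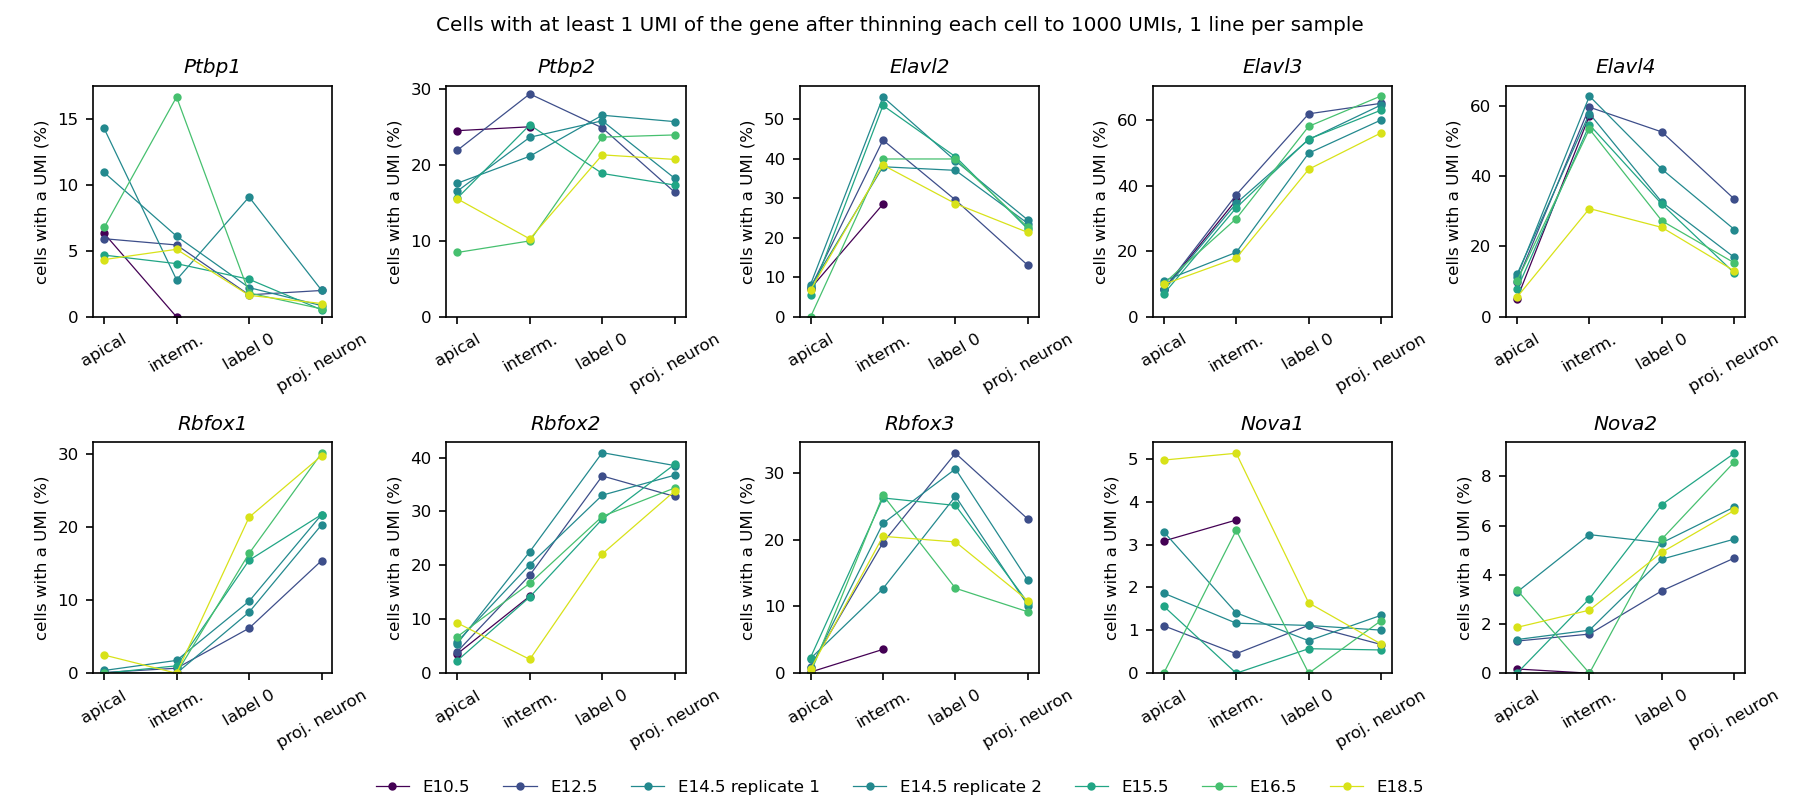
Share of cells with at least 1 UMI of each member (y axis, percent) along apical progenitors, intermediate progenitors, label 0 cells and projection neurons (x axis), after thinning each cell to 1000 UMIs, with 1 line per sample. Elavl2 and Elavl4 peak in intermediate progenitors in nearly every sample, whereas Elavl3 and Rbfox1 go on rising to projection neurons.

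The Rbfox members came on in sequence. Rbfox3 (chr11:118489762-118911597, minus strand, ENSMUSG00000025576) was low in apical progenitors, at 0 to 23.1 CPM (median 10.4). At E10.5 these held 2.46 CPM (7 UMIs; 0.988 to 5.06), and the mesenchymal-like label 15 no UMI, which allows up to 5.72 CPM (exact 95% Poisson bound). At E18.5 they held 23.1 CPM (14 UMIs; 12.6 to 38.7) and the endothelial-like label 16 16.9 CPM (2 UMIs; 2.04 to 60.9). The intervals overlapped in both samples, so that a level of Rbfox3 in apical progenitors above that of cells that should lack it was not detectable at this depth. It was 23.8 to 352 CPM (median 283) in intermediate progenitors, 24.6-fold higher (log2 difference 4.62, SE 0.27, adjusted p = 6.68e-16), higher in 7 of 7 samples. The lowest of these samples was E10.5, with 3 UMIs. Label 0 cells held 195 to 421 CPM (median 310), a difference that was not called (log2 difference 0.32, SE 0.20, adjusted p = 0.227) but was called after clustering without the members (log2 difference 0.67, adjusted p = 0.0177) and with at most 5% mitochondrial UMIs (0.70, adjusted p = 0.00290). In projection neurons Rbfox3 was lower than in label 0 cells, at 99.3 to 293 CPM (median 148) (log2 difference -0.96, SE 0.18, adjusted p = 1.47e-04), lower in 6 of 6 samples. Without the sample as a block this call was lost (log2 difference -0.93, adjusted p = 0.0702).

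Rbfox1 (chr16:5885355-7411526, plus strand, ENSMUSG00000008658) came later and kept rising. Apical progenitors held 0 to 26.4 CPM (median 1.05) and intermediate progenitors 0 to 36.1 CPM (median 8.77), with overlapping ranges. The difference between them was just called (log2 difference 1.34, SE 0.49, adjusted p = 0.0354), higher in 4 of 7 samples, and it rested on 41 and 39 UMIs. It was lost without the E12.5 sample (log2 difference 1.02, adjusted p = 0.148), without the first E14.5 sample (1.48, adjusted p = 0.0885), without the E15.5 sample (0.84, adjusted p = 0.259), after clustering without the members (1.12, adjusted p = 0.158), without the sample as a block, and with thinned sums (0.39, adjusted p = 0.802), at most 5% mitochondrial UMIs (1.14, adjusted p = 0.140) or libraries whose name ends in 1 (1.41, adjusted p = 0.0753). The step to label 0 cells was far larger: they held 67.6 to 249.5 CPM (median 136), 8.14-fold higher (log2 difference 3.02, SE 0.34, adjusted p = 6.31e-09), and no sample overlapped. Projection neurons, at 183 to 413 CPM (median 271), were higher again (log2 difference 1.14, SE 0.22, adjusted p = 1.26e-04), higher in 6 of 6 samples.

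Rbfox2 (chr15:77078990-77307004, minus strand, ENSMUSG00000033565) was the Rbfox member present in every class. Its level was 29.4 to 61 CPM (median 46.3) in apical progenitors, 103 to 229 CPM (median 175) in intermediate progenitors, 325 to 547 CPM (median 376) in label 0 cells and 401 to 542 CPM (median 471) in projection neurons. The first 2 steps were called (log2 difference 1.80, SE 0.17, adjusted p = 2.15e-10, and log2 difference 1.17, SE 0.16, adjusted p = 2.51e-07), with every sample higher and no overlap. The third was not (log2 difference 0.25, SE 0.14, adjusted p = 0.228). Rbfox2 was also the only Rbfox gene with a clear level in the mesenchymal-like label 15, at 139.7 CPM (90 UMIs; 112 to 172), where Rbfox3 had no UMI and Rbfox1 had 6.21 CPM.

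Of the UMIs of Rbfox1 and Rbfox3 together, Rbfox3 gave 88.8% to 100% in intermediate progenitors, 53.3% to 86.2% in label 0 cells and 22.1% to 61.6% in projection neurons. In each of the 6 stages or samples with all 3 classes the order was the same, and at E12.5 it went from 96.3% (258 of 268 UMIs; 93.2% to 98.2%) through 86.2% (330 of 383 UMIs; 82.3% to 89.5%) to 61.6% (257 of 417 UMIs; 56.8% to 66.3%).

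**Figure D4:**
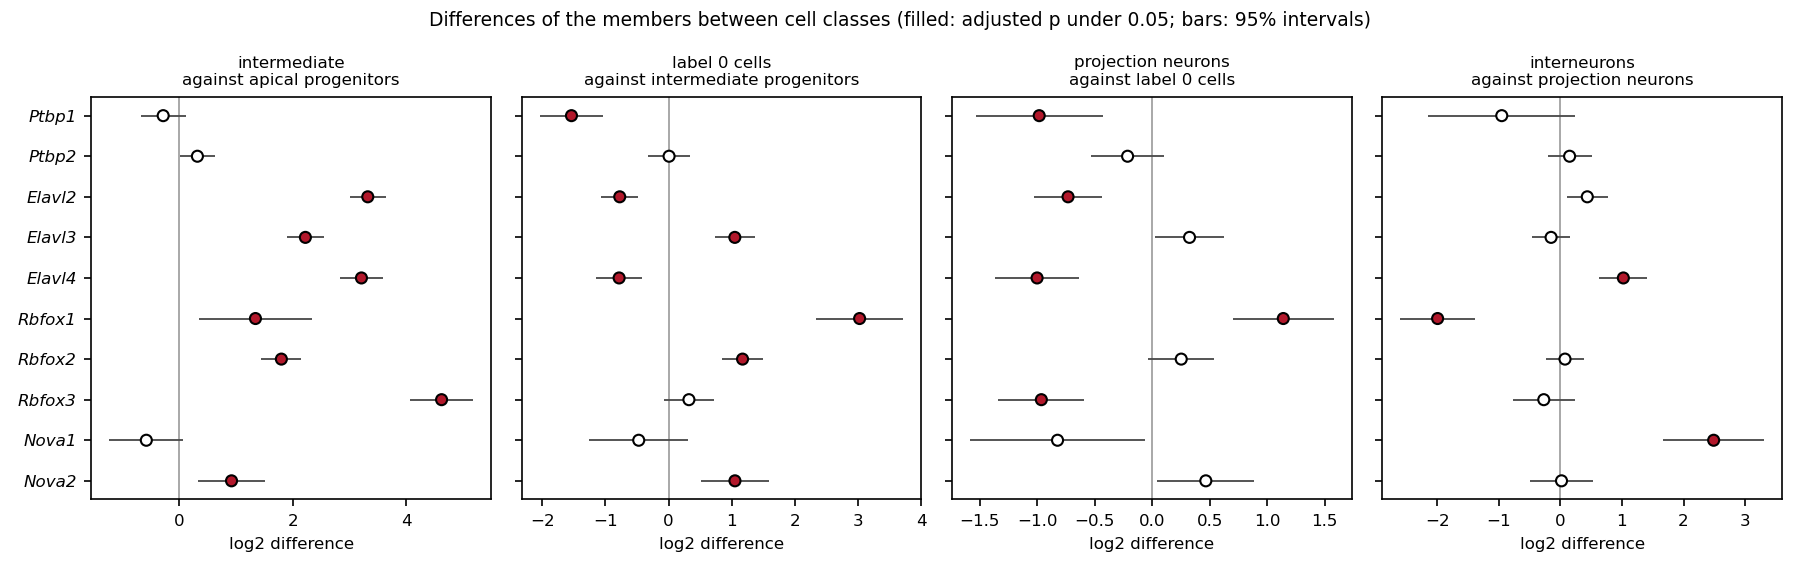
Log2 difference of each member (y axis) at each step between cell classes (x axis), with 95% intervals. Filled points have an adjusted p under 0.05. Elavl2, Elavl4 and Rbfox3 have their highest rise at the first step and fall at the third, and Rbfox1 rises most at the second.

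The Nova members parted. Nova2 (chr7:18925888-18965319, plus strand, ENSMUSG00000030411) was 3.70 to 26 CPM (median 13.2) in apical progenitors and 55.9 to 104 CPM (median 73.8) in projection neurons, 5.42-fold higher (log2 difference 2.44, SE 0.23, adjusted p = 1.34e-11), with no overlap. Intermediate progenitors lay between, at 0 to 60.5 CPM (median 22.4) (log2 difference 0.92, SE 0.29, adjusted p = 0.0139), higher in 5 of 7 samples. That call was lost without the E12.5 sample (log2 difference 0.90, adjusted p = 0.0569) and without either E14.5 sample (0.93, adjusted p = 0.0541, and 0.85, adjusted p = 0.0509), and with only libraries whose name ends in 1 (0.74, adjusted p = 0.159). Label 0 cells, at 37.8 to 88.6 CPM (median 54.5), were higher than intermediate progenitors (log2 difference 1.05, SE 0.26, adjusted p = 0.00210), higher in 6 of 6 samples, a call that was lost with at most 5% mitochondrial UMIs (0.66, adjusted p = 0.180).

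Nova1 (chr12:46694517-46818929, minus strand, ENSMUSG00000021047) went the other way in the projection neuron lineage and had the fewest UMIs of the set, 431 in all. Apical progenitors held 11 to 47.8 CPM (median 21.8) and projection neurons 4.57 to 7.03 CPM (median 6.05), 3.67-fold lower (log2 difference -1.88, SE 0.31, adjusted p = 2.60e-06), lower in 6 of 6 samples. No single step between neighbouring classes was called for it. The labels within projection neurons differed. Over all samples label 11 held 13.4 CPM (20 UMIs; 8.20 to 20.7), and labels 2, 5 and 9 held 3.86, 5.54 and 4.04 CPM. By sample, label 11 was 19.7 and 3.78 (both E14.5 samples), 11.9 (E15.5) and 23.2 (E16.5) CPM, mostly within the range of apical progenitors. Interneurons held 17.3 to 73.5 CPM (median 33.4) and were 5.62-fold higher than projection neurons (log2 difference 2.49, SE 0.40, adjusted p = 1.51e-05). They were higher in 6 of 6 samples, with no overlap of the class values. Label 11 in the first E14.5 sample and at E16.5 nevertheless lay within the interneuron range. These interneuron levels rested on 32 UMIs in all, from 2 at E16.5 to 10 at E15.5, where 3 counts would be 14.5 to 36.9 CPM. The exact Poisson interval at E16.5 was 2.09 to 62.4 CPM, which covers the 6.29 CPM of projection neurons there. Over all samples together the intervals were 25.5 to 52.6 CPM in interneurons and 4.59 to 8.15 CPM in projection neurons. In the Cajal-Retzius-like label 13, early-born neurons that express Reln, Nova1 was 31.7 CPM (24 UMIs; 20.3 to 47.1).

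Interneurons, which reach the dorsal forebrain from the ventral forebrain, were set against projection neurons as the other neuronal class. Of the 10 members 3 were called, where 13.7% of all genes tested were called. Besides Nova1 these were Elavl4, which was 415 to 676 CPM (median 484) in interneurons and higher than in projection neurons (log2 difference 1.02, SE 0.19, adjusted p = 1.71e-04), higher in 5 of 6 samples, and Rbfox1. Rbfox1 was 28.2 to 134 CPM (median 73.5) in interneurons, 3.98-fold lower (log2 difference -1.99, SE 0.30, adjusted p = 4.14e-06), and no interneuron sample reached the lowest projection neuron sample. When only cells with at most 5% mitochondrial UMIs were used, the Elavl4 difference was 0.38, adjusted p = 0.484, which ended the call, as did the use of only libraries whose name ends in 1 (0.85, adjusted p = 0.0705). Elavl2 was not called (log2 difference 0.44, SE 0.16, adjusted p = 0.0671), higher in 6 of 6 samples, but it was called with RLE size factors (log2 difference 0.49, adjusted p = 0.0319), with DESeq2 (0.49, adjusted p = 0.0301) and without the E10.5 sample (0.48, adjusted p = 0.0165). The 30 interneuron-like cells of E10.5 held 1400 CPM of summed intermediate progenitor markers, against 382 to 488 CPM in the other samples, and no Rbfox3 UMI.

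Over the 3 neighbouring steps, 7 members were called between intermediate and apical progenitors (29.8% of all genes tested), 7 between label 0 cells and intermediate progenitors (31.3%) and 5 between projection neurons and label 0 cells (20.8%). Neighbouring steps share a class, so their values are given side by side and not correlated. At the first step all 7 calls were higher. At the second, Elavl3, Rbfox1, Rbfox2 and Nova2 were higher and Ptbp1, Elavl2 and Elavl4 lower. At the third, Rbfox1 was higher and Ptbp1, Elavl2, Elavl4 and Rbfox3 lower.

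The second question was whether the members changed with stage inside a class. In apical progenitors none of the 8 members tested had a called slope on embryonic day, where 9.31% of genes did. DESeq2 called none of them either. Rbfox1 and Rbfox3 were too low to be tested there. Rbfox1 was 1.05 (E10.5), 0.726 (E12.5), 7.58 and 7.80 (both E14.5 samples), 0 (E15.5), 0 (E16.5) and 26.4 (E18.5) CPM, and without the filter on low counts its slope was called (log2 slope 0.55 per day, adjusted p = 0.0328), as it was when E15.5 (0.58, adjusted p = 0.0372) or E16.5 (0.61, adjusted p = 0.0477) was left out, which let it pass the filter. Ptbp1 was 63.5 (E10.5), 68.2 (E12.5), 102 and 125 (both E14.5 samples), 72.2 (E15.5), 114 (E16.5) and 42.9 (E18.5) CPM, with its lowest value in the last sample and its highest in the middle of the series (log2 slope 0.0068 per day, SE 0.066, adjusted p = 0.967). Ptbp2 was 266 (E10.5), 275 (E12.5), 215 and 226 (both E14.5 samples), 178 (E15.5), 143 (E16.5) and 181 (E18.5) CPM, lower in the 3 oldest samples than in the 4 younger ones, and its slope was not called (log2 slope -0.10 per day, SE 0.036, adjusted p = 0.103). At an unadjusted p under 0.05 it was the only 1 of the 8 tested. The makeup of this class changed with stage: label 6 held 90.8% of it at E10.5 and label 12, led by Olig1, Tnc, Olig2 and Egfr, held 83.4% at E18.5, where oligodendrocyte-lineage markers summed to 1375 CPM. Their part in the slopes was not tested. Intermediate progenitors had no called slope among the 7 members tested (1.42% of genes), also none with DESeq2, and 3 had an unadjusted p under 0.05, namely Ptbp2, Elavl4 and Rbfox3.

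Rbfox1 rose with age in both classes of the projection neuron lineage. In label 0 cells it was 67.6 (E12.5), 116 and 104 (both E14.5 samples), 166 (E15.5), 156 (E16.5) and 249.5 (E18.5) CPM (log2 slope 0.32 per day, SE 0.059, adjusted p = 0.00662), the only 1 of the 9 members tested to be called (1.46% of genes). The E12.5 sample was lowest and the E18.5 sample highest, and the call was lost without the E12.5 sample (log2 slope 0.31, adjusted p = 0.106) or the E18.5 sample (0.37, adjusted p = 0.0978), with thinned sums (0.30, adjusted p = 0.0656) and with at most 5% mitochondrial UMIs (0.40, adjusted p = 0.592). In projection neurons it was 183 (E12.5), 267 and 235 (both E14.5 samples), 275 (E15.5), 351 (E16.5) and 413 (E18.5) CPM (log2 slope 0.22 per day, SE 0.045, adjusted p = 0.0211). This call was lost without E12.5 (0.22, adjusted p = 0.0703), without E16.5 (0.20, adjusted p = 0.0580), without E18.5 (0.25, adjusted p = 0.0920), after clustering without the members (0.19, adjusted p = 0.0610), with at most 5% mitochondrial UMIs (0.17, adjusted p = 0.223) and with libraries whose name ends in 1 (0.20, adjusted p = 0.104). Median mitochondrial shares rose with stage. They were 2.52% to 4.35% in label 0 cells up to E14.5 and 7.35% to 7.88% in the older samples. In projection neurons they were 2.35% to 4.02% and 6.82% to 7.68%. The 5% limit thus cut mainly the late end of both slopes.

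The labels behind the projection neurons changed over the same days. Label 2, led by Sox5 and Bcl11b among others, held 91.8% of the class at E12.5 and 0.584% at E18.5, and labels 5 and 9 held 65.7% and 32.4% at E18.5. Within single labels Rbfox1 was 177 (E12.5), 252 and 172 (both E14.5 samples) and 208 (E15.5) CPM in label 2, 259 and 249 (both E14.5 samples), 248 (E15.5), 366 (E16.5) and 366 (E18.5) CPM in label 5, 197 (E14.5), 231 (E15.5), 305 (E16.5) and 502 (E18.5) CPM in label 9 and 338 and 325 (both E14.5 samples), 373 (E15.5) and 379 (E16.5) CPM in label 11. In label 9 the E18.5 sample was the highest and the E14.5 sample the lowest, and in label 5 the 2 oldest samples were above the 3 younger ones. In label 2 the values went up and down.

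Elavl4 went down with age in projection neurons. It was 468 (E12.5), 319 and 228 (both E14.5 samples), 199 (E15.5), 165 (E16.5) and 151 (E18.5) CPM (log2 slope -0.26 per day, SE 0.052, adjusted p = 0.0166), so that each older stage lay below the one before it. Leaving out E12.5 ended the call (log2 slope -0.19, adjusted p = 0.163), as did leaving out E16.5 (-0.26, adjusted p = 0.0560). Elavl4 and Rbfox1 were the 2 of 9 members called in this class (3.08% of genes). Within labels, Elavl4 was 473 (E12.5), 338 and 221 (both E14.5 samples) and 188 (E15.5) CPM in label 2 and 412 and 263 (both E14.5 samples), 262 (E15.5), 167 (E16.5) and 156 (E18.5) CPM in label 5, with the youngest sample highest and the oldest lowest in both, and 162 (E14.5), 92.9 (E15.5), 131 (E16.5) and 129 (E18.5) CPM in label 9, where the last 2 samples were alike. In label 11 it was 342 and 246 (both E14.5 samples), 232 (E15.5) and 193 (E16.5) CPM, again with the oldest sample lowest. In label 0 cells it was 823 (E12.5), 657 and 461 (both E14.5 samples), 443 (E15.5), 357 (E16.5) and 364 (E18.5) CPM, and that slope was not called (log2 slope -0.20 per day, SE 0.056, adjusted p = 0.0921). It was called there without the second E14.5 sample (log2 slope -0.21, adjusted p = 0.0270), with the 2 E14.5 samples summed (-0.21, adjusted p = 0.0290) and without the filter on low counts (-0.22, adjusted p = 0.00983).

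Rbfox3 in label 0 cells was 421 (E12.5), 404 and 319.8 (both E14.5 samples), 300.2 (E15.5), 195 (E16.5) and 285 (E18.5) CPM and in projection neurons 293 (E12.5), 164 and 132 (both E14.5 samples), 124 (E15.5), 99.3 (E16.5) and 171 (E18.5) CPM, and neither slope was called (log2 slope -0.12 per day, SE 0.058, adjusted p = 0.410, and log2 slope -0.12 per day, SE 0.068, adjusted p = 0.436). The E18.5 sample stood above E16.5 in both, and without it the slope in projection neurons was called (-0.37, adjusted p = 0.0280).

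**Figure D5:**
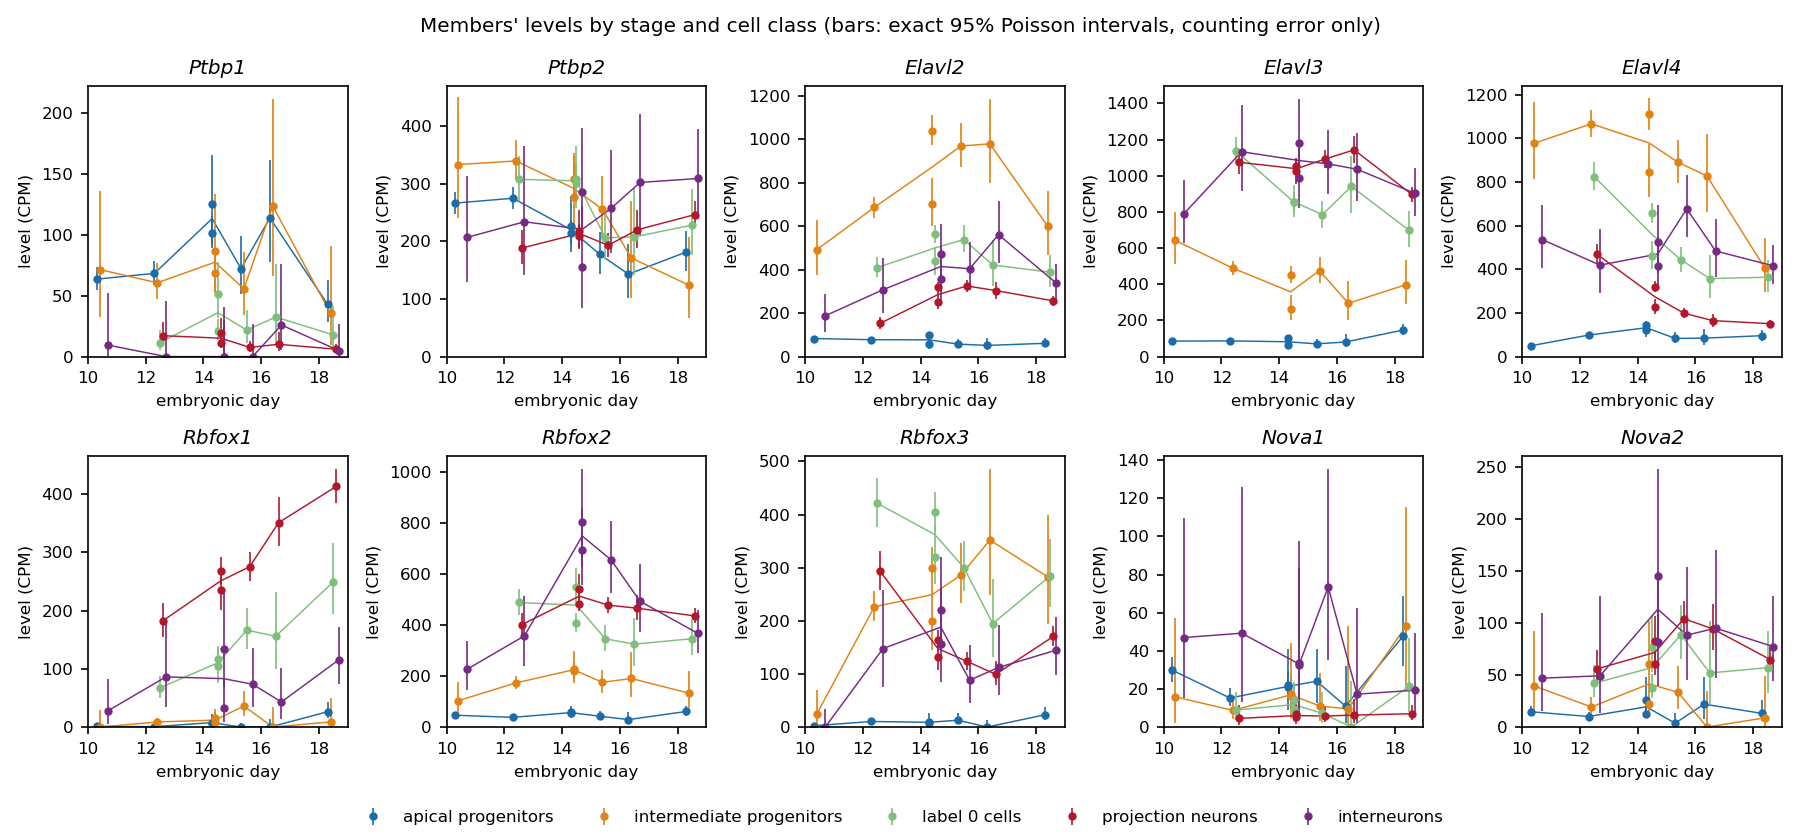
Level of each member (y axis, CPM) by embryonic day (x axis) in the 5 cell classes, 1 point per sample with exact 95% Poisson intervals, and lines through the mean per day. Rbfox1 in projection neurons goes from 183 CPM at E12.5 to 413 CPM at E18.5, whereas Elavl4 there goes from 468 to 151 CPM.

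The slopes were also compared between projection neurons and apical progenitors, in the 6 samples that have both. Of 9 members tested 2 were called, where 4.65% of genes were. The slope of Ptbp2 was higher in projection neurons by 0.19 per day on the log2 scale (SE 0.049, adjusted p = 0.0428), and that of Elavl4 lower (log2 slope -0.23 per day, SE 0.062, adjusted p = 0.0408). Ptbp2 in projection neurons was 188 (E12.5), 209 and 219 (both E14.5 samples), 193 (E15.5), 220 (E16.5) and 246 (E18.5) CPM, with its highest value in the oldest sample, while in apical progenitors it was lower at E15.5, E16.5 and E18.5 than before. Neither class had a called Ptbp2 slope of its own. The Ptbp2 call was lost in 16 of 20 alternatives, among them each sample left out in turn other than E15.5, and the Elavl4 call in 8 of 20. Elavl2, Rbfox1 and Rbfox3, not called here, were each called under 1 or 2 of the alternatives.

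Other splicing regulators gave the setting. A list of 30 further neural splicing regulators had 28 genes tested between projection neurons and apical progenitors, of which 11 were higher and 14 lower, with a median log2 difference of -0.058. Among the higher were Srrm3 (5.32, SE 0.26, adjusted p = 3.77e-19), which acts on neural microexons, and the Celf family members Celf3 (4.68) and Celf5 (3.96). Among the lower were Qk (-3.52, SE 0.16, adjusted p = 3.18e-20), the quaking protein of glia and progenitors, Msi2 (-2.0), and the third gene of the Ptbp family, Ptbp3 (-1.52). Srrm4, which also drives neural microexons, was among 7 of the list that were higher in intermediate than in apical progenitors (3.77, SE 0.18, adjusted p = 2.24e-18), and it was lower in projection neurons than in label 0 cells (-0.57). Elavl1, the member of the Elavl family found in most tissues, was lower in label 0 cells than in intermediate progenitors (-0.63).

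The general splicing factors went mostly down on the way to neurons. Of 14 SR and SR-like proteins tested, none was higher and 11 were lower in projection neurons than in apical progenitors (median log2 difference -0.63), among them Srsf9 (-1.44), Srsf2 (-0.87) and Srsf1 (-0.80). Of 25 hnRNP proteins, 16 were lower, such as Hnrnpf (-1.55) and Hnrnpl (-0.98), and 1, Hnrnpa1, was higher (0.35). Over all genes tested, 31.3% were higher and 31.7% lower. At the step from intermediate progenitors to label 0 cells, where Ptbp1 fell, 8 of 14 SR proteins and 9 of 25 hnRNP proteins were lower and none was higher, where 16.1% of genes were lower. In interneurons 7 of the 14 SR proteins were higher than in projection neurons and none lower, where 5.55% of genes were higher.

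Across 70 sums of label and sample, the genes whose log2 levels (with a pseudocount of 5 CPM) were most like those of 8 members (Rbfox2 and Nova2 were not searched) were found by Pearson's r over 7317 genes, as a description with no test, since sums of 1 sample share their libraries. Most like Ptbp1 were Ctnna1 (0.84), Gng5 (0.82) and Gpx8 (0.81). For Ptbp2 they were Brcc3 (0.73), Pcbp4 (0.73) and Hnrnph3 (0.70), and both Pcbp4 and Hnrnph3 are on the hnRNP list used above. Elavl2 was nearest to Myt1 (0.83), Kdm1a (0.83) and Igfbpl1 (0.82), and Elavl4 to Miat (0.83), Myt1 (0.81) and Srrm4 (0.76), so that Myt1, a neuronal transcription factor gene, stood in both. Elavl3 was nearest to Rufy3 (0.94), Mllt11 (0.92) and Dcx (0.92), of which Dcx encodes doublecortin, a microtubule protein of migrating neurons. Rbfox1 was nearest to Clmp (0.88), Fam49a (0.87) and Tuba1a (0.86), Rbfox3 to Frrs1l (0.87), Kif21b (0.86) and Clvs1 (0.85) and Nova1, with the weakest likeness of the 8, to Bcas2 (0.60), Sox2ot (0.59) and Npas3 (0.56).

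Levels are also given for the Cajal-Retzius-like cells of label 13 and for the non-neural labels. Label 13 held 884 CPM of Elavl3, 819 CPM of Elavl4 and 344 CPM of Rbfox2, but only 17.1 CPM of Rbfox1 and 97.6 CPM of Rbfox3. The mesenchymal-like label 15, which came from E10.5 alone, held 6.21 CPM of Elavl2 and 6.21 CPM of Elavl4, at 4 UMIs each. Labels 16, 17 and 18 hold 50, 32 and 25 cells, so that their levels of the members rest on 13 UMIs or fewer each.

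Some counts cannot be assigned to a member without doubt. Exons of Ptbp1 overlap those of 3 genes on the other strand, among them Plppr3, and an exon of Nova2 overlaps Gm26821, while exons of Elavl3 and Nova1 overlap Gm49318 and Gm33869 on the same strand. The strand that was counted is not given in the sources used here. Between transcripts of any 2 members the longest shared run was 29 bases.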

How the data were processed

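Per the labels' protocols, cells of papain-dissociated dorsal forebrain were captured with the Drop-seq protocol. Drop-seq tools 3.1, the mm10 build and Seurat 3.1.5 are named in the submitters' processing notes. The aligner, annotation and counted strand are not given in the sources used here. The deposited values were counts, whole UMIs per gene and cell, with a library name and a cluster number per cell. The 12 libraries were matched to 7 samples by name, 1 of them (1303 cells of the first E14.5 sample) by inference. A further library listed for E16.5 had no cell in the matrix. 4 barcodes occurred in more than 1 library and were kept. The 13 cells with over 2% haemoglobin UMIs were set aside. No cell in the matrix had fewer than 501 genes or more than 9.996% of its UMIs from mitochondrial genes.

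Classes were named from 144 markers of 12 cell types (at least 3 markers at least 2-fold higher). UMIs were summed per class and sample (at least 20 cells) and fitted in edgeR 4.0.16 (filterByExpr, TMM, glmQLFTest, two-sided), over all 5 classes with the sample as a block, since class sums of 1 sample come from the same libraries, and per class on embryonic day. Nothing says whether cells of a sample came from 1 or several embryos, and stages other than E14.5 have 1 sample. The p-values therefore rest on these samples alone. With the sample as a block they measure the variation left after differences between samples. For slopes within a class they measure the scatter around the line. The class sums of all comparisons share samples. Shares have exact Clopper-Pearson and levels exact Poisson 95% intervals. Promoter sequences are from RefSeq. 89 doublets (0.867%) were called with Scrublet and left out only in an alternative. Alternatives were DESeq2 1.42.0, RLE size factors, no filter, thinned sums, other cell and library choices, clustering without the members, and each sample left out. Leaving out label 12, label 6 or the inferred library was added after seeing the data. Named genes were the members, up to 4 called genes per list and direction with the largest log2 difference at 20 CPM or more, and the 3 genes most alike per member. The members and lists were chosen with earlier results of these data known. The fits were tested on simulated data.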

Additional observations from a re-analysis of the deposited data

Results flagged for a closer look

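2 results are given here because the change with age differed between 2 cell classes by a test of the difference itself. The slope of Ptbp2 on embryonic day was higher in projection neurons than in apical progenitors by 0.19 per day on the log2 scale (0.1855 unrounded, edgeR adjusted p = 0.0428). The slope within apical progenitors was -0.10 per day and that within projection neurons 0.075 per day, each fitted alone and neither called. The slope of Elavl4 was lower in projection neurons, with a difference of -0.23 per day (-0.235 unrounded, adjusted p = 0.0408). Within apical progenitors it was 0.086 per day and not called, and within projection neurons -0.26 per day. The Ptbp2 call was lost in 16 of 20 alternatives and the Elavl4 call in 8 of 20, in both cases also without the replicate block (adjusted p = 0.170 and 0.228). The labels that make up both classes changed over the same days, and their part in these differences was not tested. No class had 4 or more samples of 1 stage, so single samples could not be tested as outliers.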

How the results depend on the processing

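Of 36 called member results, 24 were called under every alternative in which they were tested. 78 of 1772 values changed sign under an alternative, none of them with a call in either fit. The class comparisons stayed within 1.5 times their number of called members under each alternative: 9 between projection neurons and apical progenitors (6 to 9), 7 between intermediate and apical progenitors (5 to 8), 7 between label 0 cells and intermediate progenitors (5 to 7), 5 between projection neurons and label 0 cells (4 to 6) and 3 between interneurons and projection neurons (2 to 4). The limit of 5% mitochondrial UMIs removed most cells of E10.5 and of E15.5 onwards. The choice of libraries ending in 1 left out E16.5 and the second E14.5 sample. The slopes were less stable, and the cause was not tested. In apical progenitors 0 members were called, and 1, Rbfox1, without a filter on low counts, while samples left out in turn gave 0 to 1. In label 0 cells the number was 1; it was 2 without the filter and with the E14.5 samples summed, 0 with thinned sums and with at most 5% mitochondrial UMIs, and 0 to 2 with samples left out. In projection neurons it was 2, but 1 with at most 5% mitochondrial UMIs, with only libraries whose name ends in 1 and after clustering without the members, and 0 to 2 with samples left out. For the difference of slopes it was 2, but 4 without the filter, 1 with RLE size factors, the E14.5 samples summed, cells of at least 1000 UMIs, at most 5% mitochondrial UMIs, libraries ending in 1, without label 6 or without the inferred library, and 0 with DESeq2, thinned sums or clustering without the members. Samples left out gave 0 to 2. Without the replicate block (day in place of sample) the difference of slopes had 0 calls. Among class comparisons the block changed 2 other calls, Rbfox1 between intermediate and apical progenitors (1.42, adjusted p = 0.129) and Rbfox3 between projection neurons and label 0 cells. Single-stage samples and few UMIs of Nova1, Ptbp1 in neurons and Rbfox1 in progenitors limit what could be detected.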
